A study of Rattus norvegicus with 5 samples.

Results

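Lung transcripts of male rats of moderate hypoxia tolerance, exposed to thin air, were compared with those of normoxic male rats by sequencing of total RNA, 1 library a group. All rows of the authors' deposited table of the normal male over the normoxic male were taken, and each symbol was counted once per locus, which gave 873 genes of the 1819 in the 9 tables of the series. The library called the normal (or moderate) male came from Sprague Dawley rats, an outbred laboratory strain, that first gasped at 15 to 20 min in a screening exposure. After a week of rest, exposed groups were held for 1 h at the air pressure of 9144 m of altitude, produced in a chamber. The normoxic male, of the same strain, was not screened for gasping. Age and the number of animals behind a library are not given in the labels. The 3 other exposed libraries, drawn on only for side-by-side values, were a susceptible male that gasped before 5 min, a tolerant male that gasped after 45 min and a tolerant female that gasped after 1 h. Each group was 1 library, so no fold below has a replicate check, and the p-values compare the reads of a pair of libraries and not the conditions. The tables hold folds and no levels, so the tissue label could not be checked against marker levels. Among lung markers, the club cell secretoglobins Scgb1a1, Scgb3a1 and Scgb3a2 were listed, and no gene of the surfactant protein family Sftp was.

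Cells sense low oxygen through prolyl hydroxylases that mark hypoxia-inducible factor (HIF) for destruction. When oxygen falls, HIF persists and switches on genes for glucose uptake, glycolysis and mitochondrial removal. In the lung, low oxygen also narrows the arteries, and endothelial cells set that tone through endothelin, prostacyclin and apelin. An acute exposure is also a stress that releases glucocorticoids and induces immediate early genes, whose transcripts appear without new protein synthesis.

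The genes were split nearly evenly by direction, but named genes and unnamed identifiers went opposite ways. Of the 873 genes, 422 (48.3%) were higher and 451 (51.7%) lower in the normal male than in the normoxic male per the authors' deposited table. Among the 607 genes with a gene name, 235 (38.7%) were higher and 372 (61.3%) lower, whereas of 266 identifiers without one 187 (70.3%) were higher and 79 (29.7%) lower as given in the authors' deposited table. A fold of at least 4 was reached by 177 higher (20.3%) and 138 lower (15.8%) of all genes, and by 53 higher (8.73%) and 109 lower (18%) of the named ones, as listed in the authors' deposited table. The median size was 2.78-fold for named genes that were higher and 2.88-fold for those that were lower per the authors' deposited table. The table holds only genes past a fold of 2 and an FDR-corrected p of 0.05, so a gene that is not listed missed these limits or was not measured, and every list below is described by its listed members alone. Its smallest fold was 2.00 and its largest p 0.0492 as given in the authors' deposited table. Large folds were not the ones with the smallest p: of the 25 lower named genes past 10-fold, 44% had a p over 0.01, against 22.8% of the 263 between 2- and 4-fold as listed in the authors' deposited table. One identifier of 92 bp on chromosome 17, LOC100362901, was listed at 0 in the normoxic library and has no fold.

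**Figure D1:**
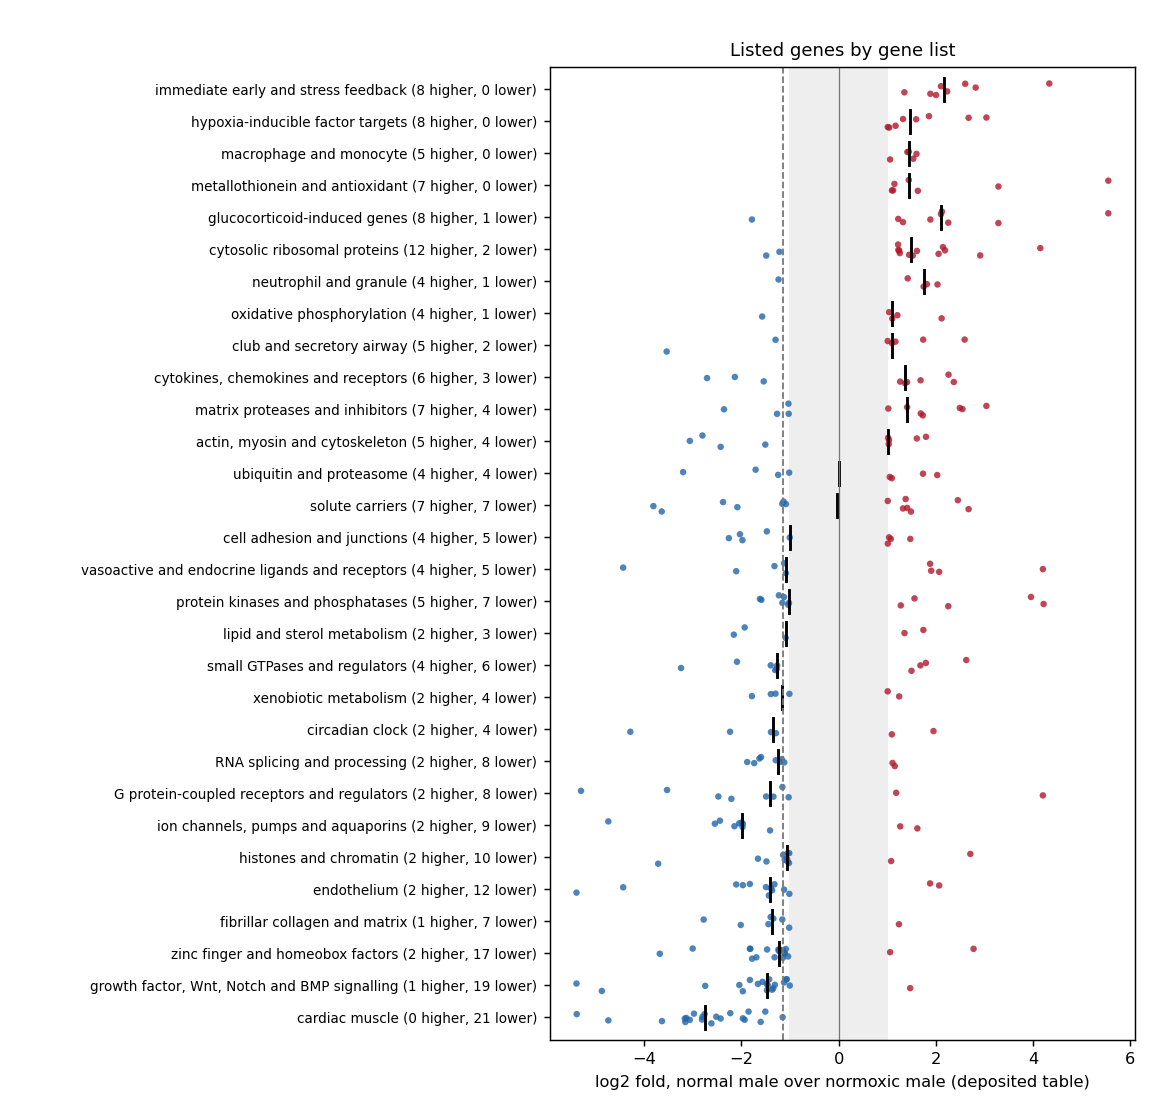
The log2 fold of each listed gene (x axis, normal male over normoxic male) is shown for every gene list with at least 5 listed members, 1 point a gene, red for higher and blue for lower. Black ticks are list medians, the dashed line is the median of all listed named genes (-1.14), and the grey band holds folds under 2, which the table leaves out. The early response, HIF, macrophage and antioxidant lists lie wholly on the higher side and the 21 cardiac genes wholly on the lower side.

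The listed immediate early genes, and nearly all listed glucocorticoid-induced genes, were higher in the normal male. All 8 listed members of a 52-symbol list of immediate early and stress feedback genes were higher, with a median of 4.49-fold, while the median of all listed named genes was on the lower side at a log2 fold of -1.14 per the authors' deposited table. Nr4a3, an orphan nuclear receptor, was 20.1-fold higher (p 1.00e-06) and Crem, whose product represses or activates cyclic AMP-driven transcription, 7.05-fold higher (p 0.018) as given in the authors' deposited table. The endothelial early gene Apold1 was 6.07-fold, the small Maf factor Maff 4.70-fold and Gadd45g, a growth arrest gene, 4.01-fold higher as listed in the authors' deposited table. Myc, a growth-promoting factor, was 2.55-fold higher per the authors' deposited table. Cdkn1a, the cell cycle inhibitor p21, was 4.30-fold higher in the normal male, and over the same normoxic library the susceptible male stood at 17-fold, the tolerant male at 10.9-fold and the tolerant female at 8.30-fold as given in the authors' deposited tables. Apold1 was 6.07-fold higher in the normal male, against 21.1-, 17.7- and 23.8-fold higher in those 3 libraries as listed in the authors' deposited tables. The order differed between genes: Nr4a3 was 20.1-fold higher in the normal male, against 38.8-, 13.1- and 20.1-fold, and Maff 4.70-fold against 5.18-, 2.73- and 6.54-fold, in those 3 libraries per the authors' deposited tables. None of these differences between libraries was tested. No Fos, Jun or Egr gene was listed. Of 9 listed glucocorticoid-induced genes 8 were higher and the cytochrome Cyp2e1 3.44-fold lower per the authors' deposited table. Some of the 8, Cdkn1a, Mt2A and Mt1a among them, are also counted on the early response list or the metallothionein list, so these lists are not separate sets. Fkbp5, a chaperone that dampens the glucocorticoid receptor, was 4.36-fold higher with a p listed at 0, and the kinase gene Map3k6 4.77-fold higher as given in the authors' deposited table. Slc10a6, a steroid sulfate carrier, was 2.50-fold and Mertk, a receptor for the clearance of dying cells, 2.34-fold higher as listed in the authors' deposited table.

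All 8 listed members of a 51-symbol list of HIF targets were higher, with a median of 2.75-fold per the authors' deposited table. The list was chosen with earlier results of these data known and is not a full set of hypoxia-responsive genes. Angpt2 (41.9-fold), Pdgfb (6.69-fold) and Edn1 (2.50-fold), which stand on other lists below, were lower as given in the authors' deposited table. Slc16a3, the lactate exporter MCT4, was 6.37-fold higher as given in the authors' deposited table. Among genes that act on mitochondria, Bnip3, a receptor for mitochondrial removal, was 3.62-fold higher as listed in the authors' deposited table. Higd1a, a respiratory chain modulator, was 2.50-fold and Pdk1, which keeps pyruvate out of mitochondria, 2.25-fold higher per the authors' deposited table. Ndrg1 was 3.02-fold, the liver-type phosphofructokinase gene Pfkl 2.05-fold and the glucose transporter gene Slc2a1 2.01-fold higher as given in the authors' deposited table. Most other genes of glycolysis were not in the table. Of 4 listed genes of glucose and intermediary metabolism 3 were higher, and Pdk2, a sister kinase of Pdk1, was 2.53-fold lower as listed in the authors' deposited table. Beside Bnip3, the autophagy genes Map1lc3b, which coats forming autophagosomes, and Atg12, part of the enzyme system that lipidates it, were 10.2-fold and 6.48-fold higher as given in the authors' deposited table. Bnip3 was also listed for the other exposed libraries against the same normoxic library. It was 3.62-fold higher in the normal male, while the susceptible male stood at 2.72-fold, the tolerant male at 2.59-fold and the tolerant female at 2.38-fold as listed in the authors' deposited tables.

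The promoter of Bnip3 is shown because it holds the core of the hypoxia response element, the short motif that HIF binds. The 250 bases before the RefSeq start (GRCr8, chr1:203154963-203155212, minus strand, written 5′ to 3′ along the gene) are given with each match to ACGTG or GCGTG on either strand in capitals. There were 4 matches in 3 stretches, since the middle stretch reads as a match on both strands.
Bnip3: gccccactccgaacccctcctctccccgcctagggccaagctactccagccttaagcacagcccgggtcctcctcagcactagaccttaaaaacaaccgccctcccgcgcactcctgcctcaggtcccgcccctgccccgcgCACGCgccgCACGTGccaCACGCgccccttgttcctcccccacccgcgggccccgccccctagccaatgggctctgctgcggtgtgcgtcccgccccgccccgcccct
Such matches are common. Of all 33469 promoters of the RefSeq table, 41.6% held at least 1 in the 300 bases from 250 before to 50 after the start. Of the 21851 protein-coding ones 45.8% did.

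Metallothioneins, small proteins that bind zinc and copper, and antioxidant enzymes were higher in the normal male. All 7 listed members of a 51-symbol list were higher, with a median of 2.72-fold per the authors' deposited table. Mt2A was 46.7-fold higher (p 0.00758) in a gene model of 775 bp and 8.06-fold higher (p 7.01e-05) in one of 833 bp that spans it as given in the authors' deposited table. Its neighbour Mt1a, 4978 bp away on chromosome 19, was 9.75-fold higher (p 3.42e-11) as listed in the authors' deposited table. An unnamed identifier that RefSeq calls the metallothionein pseudogene Mt1m was 39.5-fold higher per the authors' deposited table, and was singled out after its value was seen. The sources used here do not say how reads were shared between these near-identical copies. Gclc, the rate-limiting enzyme of glutathione synthesis, was 3.09-fold and the quinone reductase gene Nqo1 2.72-fold higher as given in the authors' deposited table. Peroxiredoxin 1 (Prdx1, 2.17-fold), thioredoxin (Txn1, 2.14-fold) and haem oxygenase 2 (Hmox2, 2.21-fold) were also higher as listed in the authors' deposited table. Of 3 heat shock genes, the inducible Hspa1b and Hspa1a were 3.46-fold and 3.27-fold higher, and St13, a cochaperone of Hsp70, was 5.53-fold lower per the authors' deposited table. The loci of Hspa1a and Hspa1b overlap in the table, so their folds are not separate.

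Metal response elements, bound by the zinc sensor MTF1, are the known switch of this gene pair, so both promoters are shown. They are the 250 bases before the RefSeq starts (GRCr8, minus strand, chr19:10838709-10838958 for Mt2A and chr19:10832976-10833225 for Mt1a, which RefSeq calls Mt1). Capitals mark matches on either strand to TGCACNC or TGCGCNC, 4 in Mt2A and 6 in Mt1a.
Mt2A: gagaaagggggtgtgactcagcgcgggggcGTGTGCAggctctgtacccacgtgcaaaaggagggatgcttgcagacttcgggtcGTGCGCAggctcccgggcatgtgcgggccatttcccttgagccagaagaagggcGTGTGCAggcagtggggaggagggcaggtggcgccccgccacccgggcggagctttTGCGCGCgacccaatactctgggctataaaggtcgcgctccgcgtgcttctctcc
Mt1a: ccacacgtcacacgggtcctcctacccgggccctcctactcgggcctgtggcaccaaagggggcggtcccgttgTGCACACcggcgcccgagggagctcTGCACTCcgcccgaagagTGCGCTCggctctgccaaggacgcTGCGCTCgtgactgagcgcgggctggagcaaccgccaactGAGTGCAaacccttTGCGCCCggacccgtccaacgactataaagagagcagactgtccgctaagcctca
Of all promoters 24.2%, and of protein-coding ones 27.6%, held at least 1 match in the 300 bases. The share was 33.8% among 195 promoters of higher genes and 42.9% among 315 promoters of lower genes, so the motif was not more frequent on the side of the metallothioneins.

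Clock output genes were lower. The daily clock runs on a loop in which Per and Cry proteins repress their own transcription, and the PAR bZIP factors Tef, Hlf and Dbp carry its rhythm to other genes. Per3 was 19.5-fold (p 2.79e-10), Tef 4.70-fold, Per2 2.62-fold and Cry2 2.44-fold lower as given in the authors' deposited table. An unnamed identifier that RefSeq calls Hlf, the third PAR bZIP partner of Tef, was 16.5-fold lower (p 8.47e-06) as listed in the authors' deposited table, and was looked up after its value was seen. Nfil3, a repressor that competes with PAR bZIP factors for their sites, was 3.86-fold higher per the authors' deposited table. Side by side against the same normoxic library, Per3 was 19.5-fold lower in the normal male, 3.18-fold lower in the susceptible male and 5.19-fold lower in the tolerant male as given in the authors' deposited tables. The time of day at which tissue was taken is not given in the labels.

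The Tef promoter holds 1 canonical E-box, the site of the clock activators, which the same search did not find in the windows of Per2 or Per3. CACGTG is in capitals in the 250 bases before the RefSeq start (GRCr8, chr7:115206577-115206826, plus strand).
Tef: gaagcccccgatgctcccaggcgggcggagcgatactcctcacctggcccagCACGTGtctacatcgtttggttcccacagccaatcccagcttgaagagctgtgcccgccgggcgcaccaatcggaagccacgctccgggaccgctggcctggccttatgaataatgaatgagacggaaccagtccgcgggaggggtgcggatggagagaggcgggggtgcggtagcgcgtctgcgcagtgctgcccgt
Of all promoters 6.42%, and of protein-coding ones 7.02%, held an E-box in the 300 bases, against 9.23% for higher and 6.98% for lower genes.

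**Figure D2:**
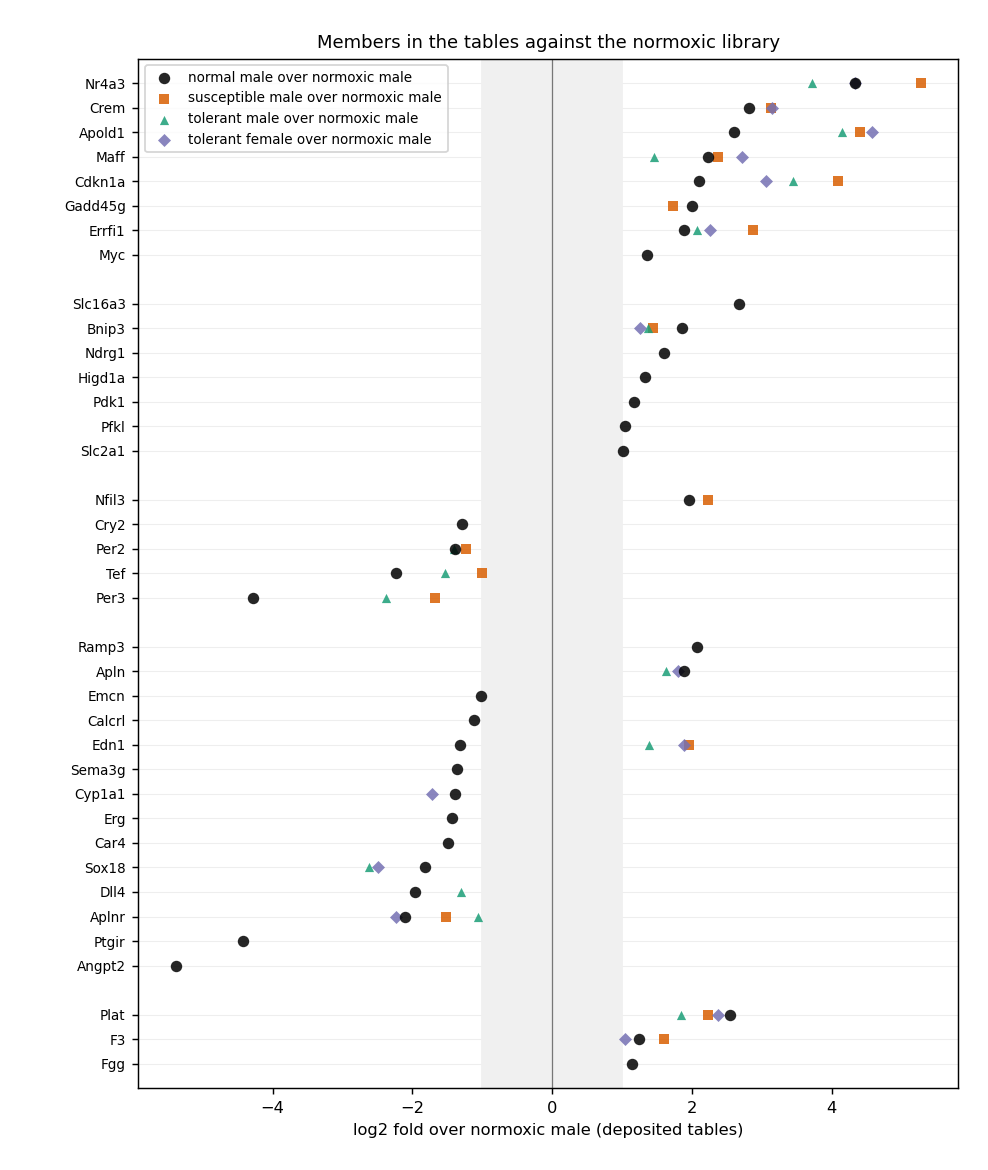
The log2 fold over the normoxic male is plotted for the listed members reported here of 5 gene lists (from the top: immediate early, HIF targets, clock, endothelium, coagulation) in the normal male (black) and, where the same gene model was listed, in the susceptible male, tolerant male and tolerant female. All 4 tables share the normoxic library, a gene without a coloured point was not in that table, and Edn1 is the gene whose black point lies on the other side from its coloured points.

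The listed genes of clotting and of its dissolution were higher. All 4 listed members of a 33-symbol list were higher, with a median of 3.71-fold as listed in the authors' deposited table. Plat, the tissue plasminogen activator, was 5.84-fold higher with a p listed at 0 per the authors' deposited table. F3, the tissue factor that starts clotting, was 2.36-fold and Fgg, the gamma chain of fibrinogen, 2.21-fold higher as given in the authors' deposited table. Among proteases and inhibitors at large, 7 of 11 were higher as listed in the authors' deposited table. Adamts9, a proteoglycan-cleaving protease, was 5.62-fold higher, whereas Adamts7, Adamts12 and Adamts2 were 5.12-, 2.4- and 2.04-fold lower per the authors' deposited table.

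Endothelial genes were mostly lower. Of a 67-symbol endothelial list 14 were listed, 12 of them lower, with a median log2 fold of -1.41 as given in the authors' deposited table. Fewer cells of a type and less RNA per cell cannot be told apart in whole tissue, here or for any other cell type below. Angpt2, the ligand that loosens vessel walls through the receptor Tie2, was 41.9-fold lower (p 6.44e-04) and Ptgir, the prostacyclin receptor, 21.6-fold lower (p 0.00242) as listed in the authors' deposited table. The Notch ligand Dll4, which marks arterial cells and tip cells, was 3.92-fold, the transcription factor Sox18 3.54-fold and the ETS factor Erg 2.70-fold lower per the authors' deposited table. Car4, a carbonic anhydrase of lung capillaries, was 2.82-fold and Cyp1a1 2.63-fold lower as given in the authors' deposited table. Apelin and its receptor went apart: Apln was 3.68-fold higher and Aplnr 4.31-fold lower as listed in the authors' deposited table. So did the partners of the adrenomedullin receptor, with Ramp3 4.19-fold higher and Calcrl 2.18-fold lower per the authors' deposited table. Mmrn2, an endothelial matrix protein, was 16.6-fold lower (p 3.70e-06) and Spns2, the endothelial exporter of sphingosine 1-phosphate, 4.76-fold lower as given in the authors' deposited table. Npr3, the clearance receptor of natriuretic peptides, was 3.74-fold higher and Slc6a4, the serotonin transporter, 2.12-fold lower as listed in the authors' deposited table.

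Edn1, the gene of the vasoconstrictor endothelin 1 (chromosome 17, 28303384 to 28309950 in the tables), was 2.50-fold lower in the normal male (p 2.22e-04) than in the normoxic male per the authors' deposited table. Over that same normoxic library its fold was positive in the susceptible male (3.88), the tolerant male (2.62) and the tolerant female (3.68) as given in the authors' deposited tables. In the table of the normal male over the susceptible male it was 9.69-fold lower (p 0) as listed in the authors' deposited table. The tolerant male was 6.55-fold and the tolerant female 9.18-fold above the normal male per the authors' deposited tables. These tables share libraries and are not separate measurements.

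Growth factor and developmental signalling genes were lower almost throughout. Of 20 listed members of the growth factor, Wnt, Notch and BMP list 19 were lower and 1 higher, with a median log2 fold of -1.47 as given in the authors' deposited table. Beside Angpt2 and Dll4, the platelet-derived growth factor gene Pdgfb was 6.69-fold lower with a p listed at 0 as listed in the authors' deposited table. Among Wnt genes, Wnt5a was 3.54-fold and Vangl2, a planar polarity protein, 29.2-fold lower (p 0.0115) per the authors' deposited table. The receptor tyrosine kinase genes Fgfr4 and Ephb3 were 4.12-fold and 3.16-fold lower, and Wif1, a secreted Wnt inhibitor, was 3.42-fold lower as given in the authors' deposited table. The exception was Fgfbp1, which releases fibroblast growth factors from matrix, at 2.77-fold higher as listed in the authors' deposited table. Of 19 listed zinc finger, homeobox, Sox, Fox and T-box factors 17 were lower, with a median log2 fold of -1.23 per the authors' deposited table. Of the 19, 11 had a p over 0.01, against 206 of all 873 listed genes, as listed in the authors' deposited table. Higher minus lower members came to -15, but to -6 at a p of at most 0.01 and -1 at a fold of at least 4. The lower factors included 4 T-box genes, which pattern the lung and heart: Tbx5 was 3.52-fold, Tbx3 3.43-fold, Tbx2 2.49-fold and Tbx4 2.16-fold lower as given in the authors' deposited table. Zfp263 was 12.8-fold, Zfp384 8.0-fold and Sox4 3.23-fold lower as listed in the authors' deposited table. Outside the lists, the ETS factor gene Elf2 had the largest fold of all lower named genes, 45.3-fold (p 1.68e-09), per the authors' deposited table. The nuclear receptor gene Nr2f2, a venous identity factor, was 13.1-fold lower (p 0.0113) per the authors' deposited table.

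Matrix genes were lower in 7 of 8 cases, with a median log2 fold of -1.37 as given in the authors' deposited table. Emilin1, an elastic fibre protein, was 6.85-fold lower in one gene model (p 0.00459) and 2.63-fold lower in another (p 5.00e-04), the anchoring collagen gene Col7a1 4.04-fold and the fibrillar collagen genes Col3a1, Col1a2 and Col1a1 2.72-, 2.54- and 2.23-fold lower as listed in the authors' deposited table. Lox, the enzyme that crosslinks collagen and elastin, was 2.36-fold higher with a p listed at 0 per the authors' deposited table. Of 9 adhesion genes, 4 were protocadherins, of which Pcdh17, Pcdh1 and Pcdh12 were 4.78-, 4.08- and 3.94-fold lower and Pcdh18 2.05-fold higher, while the tight junction gene Cldn7 and the gap junction gene Gja1 were 2.78- and 2.10-fold higher as given in the authors' deposited table.

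Heart muscle genes made up the list with the most members on one side. Rat pulmonary veins carry a sleeve of cardiac muscle, so such transcripts occur in whole lung. Of 59 symbols 21 were listed, all lower, with a median of 6.76-fold as listed in the authors' deposited table. Leading the list was Lrrc10 at 41.8-fold lower (p 0.0323) per the authors' deposited table. Srl, a calcium store protein, was 12.4-fold lower (p 4.19e-04) and Trdn, which ties the calcium release channel to its store, 8.95-fold lower as given in the authors' deposited table. The sarcomere genes Myom2, Myh6 and Tnnc1 were 8.77-, 8.34- and 7.86-fold lower as listed in the authors' deposited table. Among the cardiac genes just named, Myh6 had a p listed at 0. Chrm2, the muscarinic receptor of the heart and airway muscle, was 11.5-fold lower (p 0.00234) per the authors' deposited table. Of a 23-symbol smooth muscle list, the 2 listed named genes, Cnn1 and Actg2, were 2.05-fold and 2.02-fold higher as given in the authors' deposited table. With RefSeq names given to the unnamed identifiers, 2 of 3 were higher and Itga8 was lower. The part of the amount of vein muscle in the other lower genes was not tested.

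Receptor, channel and anchoring genes were also mostly lower. Of 10 listed G protein-coupled receptors and regulators 8 were lower, with a median log2 fold of -1.42 as listed in the authors' deposited table. Akap12, a scaffold that tethers protein kinase A, was 39.3-fold lower with a p listed at 0, the largest fold with so small a p among named genes per the authors' deposited table. It was 74.0-fold higher in the tolerant male and 62.7-fold higher in the tolerant female than in the normal male as given in the authors' deposited tables. The other anchoring gene Akap5 was 2.81-fold and the adenylate cyclase gene Adcy1 4.61-fold lower as listed in the authors' deposited table. Pde10a, a phosphodiesterase that breaks down cyclic nucleotides, was 18.4-fold higher (p 0.00494) per the authors' deposited table. Among 11 ion channels, pumps and aquaporins 9 were lower, with a median log2 fold of -2.0 as given in the authors' deposited table. Trpm4 was 5.84-fold, the sodium channel subunit gene Scn3b 4.13-fold and the ATP-gated channel gene P2rx7 3.94-fold lower as listed in the authors' deposited table. Trpm4 lies on another chromosome in RefSeq than in the table.

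Innate immune genes were mostly higher. All 5 listed macrophage and monocyte markers of a 50-symbol list were higher, with a median of 2.72-fold per the authors' deposited table. They were the endotoxin coreceptor Cd14 (3.03-fold), Siglec5 (2.90-fold), Gpnmb (2.72-fold), the RNA sensor Tlr7 (2.66-fold) and the mannose receptor Mrc1 (2.08-fold) as given in the authors' deposited table. Of 5 neutrophil genes 4 were higher: Slpi, a protease inhibitor also made by airway cells, was 4.09-fold, the calprotectin genes S100a8 and S100a9 3.52- and 2.68-fold and haptoglobin (Hp) 3.36-fold higher as listed in the authors' deposited table. Retnlg was 2.35-fold lower, while Retnla, a resistin-like gene 29123 bp from it, was 6.02-fold higher per the authors' deposited table. Of 9 listed cytokine, chemokine and receptor genes 6 were higher, 7 of the 9 with a p over 0.01 as given in the authors' deposited table. Ccl6 (2.65-fold, p listed at 0) and the homing chemokine Cxcl12 (4.39-fold lower, p 1.57e-06) were the 2 below that value as listed in the authors' deposited table. Cxcl13, which draws B cells into follicles, was 2.4-fold higher (p 0.033) in the normal male and 32.0-fold lower in the susceptible male over the shared normoxic library per the authors' deposited tables. The 3 listed RT1 genes, which present antigens, were 2.01- to 2.12-fold higher with p listed at 0 as given in the authors' deposited table. Among lymphocyte and granulocyte markers, the T cell kinase gene Zap70 was 2.38-fold higher, and perforin (Prf1, 2.41-fold), the B cell receptor Cd22 (2.91-fold) and the eosinophil receptor Ccr3 (6.52-fold) were lower as listed in the authors' deposited table. Ptprcap, a partner of the leukocyte phosphatase CD45, was 15.5-fold higher (p 0.0128) per the authors' deposited table. The interferon-induced Mx2 was 2.89-fold lower as given in the authors' deposited table.

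One block of unnamed identifiers consisted of immunoglobulin variable segments, all higher in the normal male. V segments encode the antigen-binding ends of antibodies, and plasma cells transcribe the one segment they have rearranged. By RefSeq gene identifier, 46 listed entries were V segments, 28 on chromosome 4, where the rat kappa light chain locus lies, and 18 on chromosome 6, where the heavy chain locus lies. All 46 were higher, at 2.22- to 46.0-fold (median 7.33-fold) on chromosome 4 and 3.13- to 40.8-fold (median 6.43-fold) on chromosome 6 as listed in the authors' deposited table. Of the 46, a p listed at 0 was held by 8 segments on chromosome 4 and 5 on chromosome 6 per the authors' deposited table. The segments on chromosome 4 spanned 97931398 to 103646051 and those on chromosome 6 spanned 140074719 to 143162170 in the coordinates of the tables. Within these spans, on chromosomes 4 and 6 in that order, stood 22 and 14 further identifiers without a RefSeq match, all higher as given in the authors' deposited table. Also within them were the identifiers that RefSeq calls Igkcl1 (7.22-fold higher) and Ighl16 (7.19-fold higher) as listed in the authors' deposited table. Against the same normoxic library, the susceptible male had 17 listed V segments and the tolerant male 14, all lower, and the tolerant female 11, all higher, per the authors' deposited tables. Their medians on chromosome 4 were 11.8-fold lower, 5.78-fold lower and 3.70-fold higher in the order just given as given in the authors' deposited tables. Some segments resemble each other in sequence, and the sources used here do not say how reads were shared between them. The 1 listed marker of a 47-symbol B and plasma cell list was Cd22, which was lower. What lies behind the folds of the segments was not tested. V segments were not among the lists chosen for the study's tissue and were looked up after their values were seen.

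**Figure D3:**
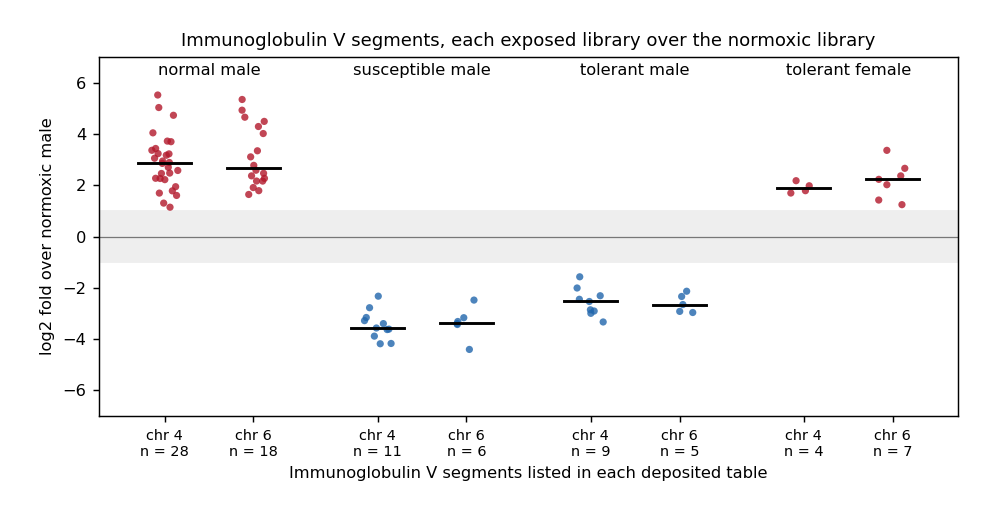
Each point is the log2 fold of 1 immunoglobulin V segment over the normoxic male (y axis) in the deposited table of the normal, susceptible and tolerant male and the tolerant female, by chromosome, with n the number listed. Black ticks are medians, the grey band holds folds under 2, and all 4 tables share the normoxic library. All 46 segments of the normal male and all 11 of the tolerant female lie above 0, and the 17 and 14 of the susceptible and tolerant male below.

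Listed ribosomal protein genes were mostly higher, and listed splicing and chromatin genes mostly lower. Of 14 listed cytosolic ribosomal protein genes 12 were higher, with a median of 2.80-fold as listed in the authors' deposited table. Rps14 was 17.7-fold, Rpl6 7.52-fold, Rpl30 4.55-fold and Rps21 4.15-fold higher, while Rps19 and Rpl41 were 2.81- and 2.32-fold lower per the authors' deposited table. With RefSeq names given to the unnamed identifiers, 19 of 23 were higher. Ribosomal genes have many processed copies, so reads could be split among them. The translation factor list was split, with the release factor gene Etf1 2.24-fold higher and the elongation factor gene Eef1a2 8.36-fold lower per the authors' deposited table. Of 5 oxidative phosphorylation genes 4 were higher, led by cytochrome c (Cycs, 4.34-fold), and the complex I gene Ndufv3 was 2.97-fold lower as given in the authors' deposited table. Of 10 listed splicing and RNA processing genes 8 were lower, among them Luc7l3 (3.68-fold), Rbm5 (2.45-fold), Sfrs12 (3.02-fold) and Prpf38b (2.25-fold) as listed in the authors' deposited table. The 2 that were higher were the RNA helicase genes Ddx3x and Ddx21 at 2.23- and 2.16-fold per the authors' deposited table. None of these 10 genes reached a fold of 4. Of 12 listed histone and chromatin genes 10 were lower, with a median log2 fold of -1.05 as given in the authors' deposited table. Chd3, a remodeller of the NuRD complex, was 13.1-fold (p 0.0304), Smarcd3 3.16-fold and the maintenance methyltransferase gene Dnmt1 2.21-fold lower as listed in the authors' deposited table. Mll4, a histone methyltransferase gene that RefSeq calls Kmt2b, was 6.53-fold higher (p 0.0402) as given in the authors' deposited table. Kmt2d, Med12 and Smarcc2, found through RefSeq after their values were seen, were 2.99-, 3.68- (2.21- in another model) and 2.09-fold lower per the authors' deposited table.

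Airway, lipid and transport genes were mixed. Of 7 club and secretory genes 5 were higher, among them Scgb3a1 (3.34-fold), Scgb3a2 (2.25-fold) and Scgb1a1 (2.14-fold), and the goblet cell gene Clca3 was 11.6-fold lower as given in the authors' deposited table. Scgb3a1 was 3.29-fold lower in the susceptible male over the same normoxic library as listed in the authors' deposited table. The fatty acid desaturase gene Scd1 was 3.35-fold higher, and Acly, which makes cytosolic acetyl-CoA, 4.45-fold lower per the authors' deposited table. Solute carriers were split at 7 higher and 7 lower, from Slc16a3 at 6.37-fold higher to the mitochondrial carrier gene Slc25a42 at 14-fold lower as given in the authors' deposited table. Slc4a1, the anion exchanger of red cells, was 12.4-fold lower as listed in the authors' deposited table. Kinase and phosphatase genes stood at 5 higher and 7 lower, small GTPases and regulators at 4 and 6, ubiquitin genes at 4 and 4, actin and myosin genes at 5 and 4 and xenobiotic enzymes at 2 and 4 per the authors' deposited table. Of the cytoskeletal genes, the 4 that were lower (Myh6, Myh7, Actn2 and Myl7) also stand on the cardiac list. In all, 294 of 605 named symbols belonged to at least 1 of the 49 lists, some to several.

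Several of the largest folds belonged to genes on few or none of the lists. Traf4, an adaptor of tumour necrosis factor receptors, was 34.3-fold higher (p 0.00175), and Fam183b, a ciliated cell gene, 13-fold higher (p 0.011) as given in the authors' deposited table. Dlk1, a non-canonical Notch ligand of immature cells, was 12.4-fold higher (p 4.15e-04) and Rtn3, a membrane-shaping protein of the endoplasmic reticulum, 9.19-fold higher as listed in the authors' deposited table. Alg2, an enzyme of N-glycan assembly, was 10.1-fold higher (p 0.0341) per the authors' deposited table. Of the S100 family of small calcium-binding proteins, S100g was 7.76-fold (p 1.23e-09) and S100a10, the partner of annexin A2, 3.31-fold higher as given in the authors' deposited table. Lower genes were led by the corepressor gene Runx1t1 (16.6-fold, p 0.0233), Fam13c1 (17.9-fold, p 0.0443, and 3.64-fold, p 0.0086, in another gene model) and Prrg3 (14.4-fold, p 1.92e-05) as listed in the authors' deposited table. Phldb1 was 6.85-fold, the adhesion receptor gene Cd97 3.11-fold and Brf2, an RNA polymerase III initiation factor gene, 2.90-fold lower, all with p listed at 0 per the authors' deposited table. Large folds with a p above 0.01 and moderate ones with a p listed at 0 thus stood side by side in both directions.

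Many unnamed identifiers could be given a name through their RefSeq gene identifier or a synonym, and the named ones in this paragraph were chosen after their values were seen. Beside the V segments, 90 matched protein-coding genes, of which 41 were higher and 49 lower, and 12 matched pseudogenes, of which 8 were higher as given in the authors' deposited table. The endothelial scavenger receptor gene Stab1 was 15.0-fold lower (p 9.48e-06) and Efcc1 194-fold lower in one gene model (p 2.20e-06) and 2.07-fold lower in another that spans it (p 0.0227) as listed in the authors' deposited table. Col6a4 was 18.7-fold, the hyaluronan-degrading gene Cemip 6.85-fold and Adamts10 6.16-fold lower per the authors' deposited table. Filip1l was 14.9-fold and Tmem47 31.3-fold higher as given in the authors' deposited table. The 115 identifiers that matched no RefSeq gene had a median locus of 572 bp, and 90 of them were higher as listed in the authors' deposited table.

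Locus length differed between higher and lower genes. The median locus of higher genes was 4949.5 bp and that of lower genes 23784 bp, as given by the start and end per the authors' deposited table. Among named genes alone the medians were 15045 bp for higher and 25950.5 bp for lower genes as given in the authors' deposited table. Of genes of at least 1 kb 290 (39.8%) were higher and 439 (60.2%) lower per the authors' deposited table. Of 144 genes under 1 kb 132 (91.7%) were higher, and 128 of those 132 were unnamed identifiers, V segments among them, as listed in the authors' deposited table. Among named genes, 66.7% of the 84 loci of 1 to 5 kb were higher, 38% of the 205 of 5 to 20 kb, 34.4% of the 163 of 20 to 50 kb, 22.7% of the 75 of 50 to 100 kb and 32.4% of the 74 longer ones per the authors' deposited table. Lists lay along the same axis. The ribosomal list had a median locus of 2802.5 bp and the oxidative phosphorylation list 4099 bp, against 28068.5 bp for splicing, 41366.5 bp for chromatin and 24136 bp for growth factor signalling. The lists were not ordered by length throughout, since the mostly lower endothelial list had a median of 10013.5 bp and the wholly higher HIF list 20129.5 bp. A list member with rows of opposite sign (Cdkn1c, Aqp4, Ppp2ca and Hba-a2) was counted by its row of larger size. The part of locus length in the direction of any list was not tested. In the other tables against the same normoxic library, the medians of all listed genes were 10684 bp for higher and 7113 bp for lower genes in the susceptible male. They were 17795 and 8115 bp in the tolerant male and 10095 and 14443 bp in the tolerant female. Among named genes alone they were 10738.5 and 15104 bp in the susceptible male, 21536 and 14703 bp in the tolerant male and 17300 and 15925.5 bp in the tolerant female. The direction of the difference thus depended on whether unnamed identifiers were counted in the susceptible male and the tolerant female.

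**Figure D4:**
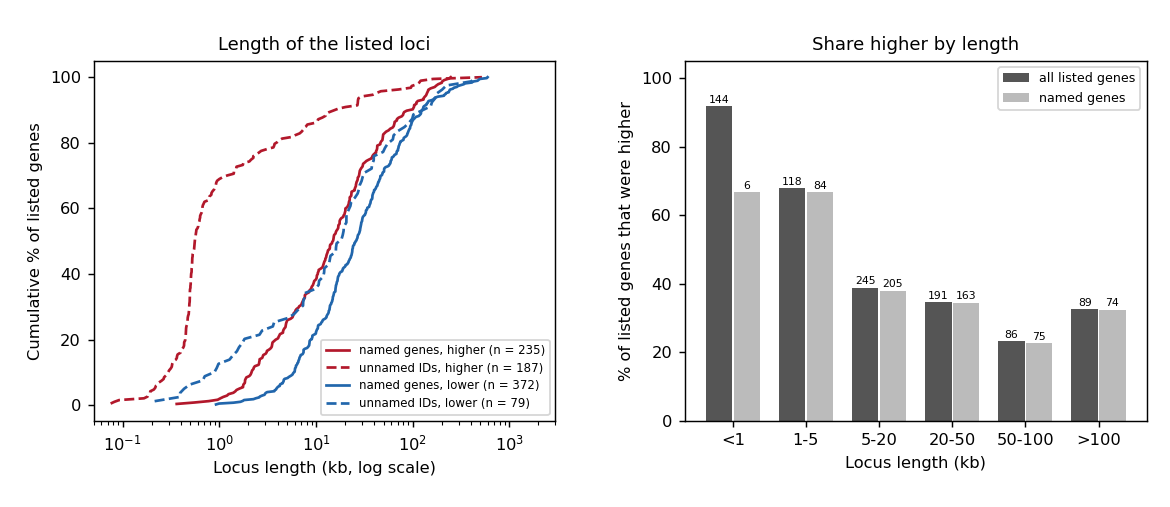
The left panel gives the cumulative percentage of listed genes (y axis) by locus length in kb on a log scale (x axis), for named genes (solid) and unnamed identifiers (dashed), higher in red and lower in blue. The right panel gives the percentage of listed genes that were higher in the normal male by length class, with the number of genes above each bar. It reads 91.7% of all genes under 1 kb and 66.7% of named genes of 1 to 5 kb, and 22.7% of named genes of 50 to 100 kb.

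At 14 loci the table held rows of opposite sign for 1 symbol, so that no single direction describes the gene. The transcription factor genes Zfhx3 and Runx1 each had a higher and a lower model, at 5.81-fold higher and 18.5-fold lower for Zfhx3 and 5.20-fold higher and 4.79-fold lower for Runx1 as given in the authors' deposited table. Ppp2ca, the catalytic subunit of phosphatase 2A, was 18.6-fold higher in a model of 19753 bp and 4.18-fold lower in one of 20441 bp, both with p listed at 0 as listed in the authors' deposited table. The intermediate filament gene Nes was 11.9-fold higher and 3.44-fold lower in models that differ by 3 bp in length, 9041 and 9044 bp, per the authors' deposited table. Polr2a, the large subunit of RNA polymerase II, was 5.80-fold higher and 2.35-fold lower in models of 26304 and 26301 bp as given in the authors' deposited table. Stag2, a cohesin subunit, was 3.80-fold higher and 2.69-fold lower, and the cell cycle inhibitor gene Cdkn1c 3.67-fold higher and 5.82-fold lower as listed in the authors' deposited table. Both rows of the RNA editing gene Adarb1 had the same start and end, with folds of 2.77 higher and 3.50 lower per the authors' deposited table. Tmem100, an endothelial membrane protein gene, was 2.16-fold higher and 6.05-fold lower as given in the authors' deposited table. The haemoglobin gene Hba-a2 had such rows at 2 loci, 1 of them under an unnamed identifier that RefSeq gives the same name, with 2.43-fold higher and 3.60-fold lower at the named one as listed in the authors' deposited table. The others were Hs1bp3, Cmklr1 and Aqp4. Grn had a lower row (8.63-fold) and a higher row (2.35-fold) at adjoining loci that do not overlap, and was counted once at each per the authors' deposited table. In the other tables against the normoxic library, 1, 0 and 1 loci had rows of opposite sign for the susceptible male, the tolerant male and the tolerant female. Those tables held only 2, 1 and 7 loci with more than 1 row, of 258, 263 and 249 genes. The table of the normal male held 33 such loci of 873 genes, so these counts are not on an equal base.

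**Figure D5:**
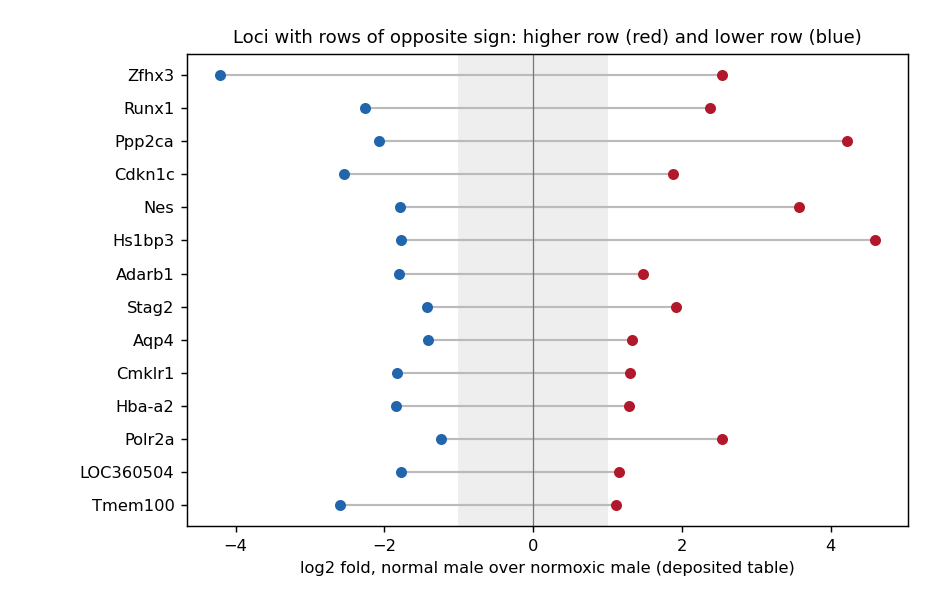
For each of the 14 loci with rows of opposite sign, the log2 fold of the highest row (red) and of the lowest row (blue) of the same symbol is plotted (x axis, normal male over normoxic male), joined by a line. The grey band holds folds under 2, which the table leaves out, and Zfhx3 spans the widest range on the lower side at 18.5-fold lower.

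Neighbouring genes were compared within 50 kb. Of 28 such pairs of named genes 15 were both lower, 4 both higher and 9 mixed as given in the authors' deposited table. Of all 607 named genes 372 (61.3%) were lower, so pairs that are both lower are common without any link between neighbours. Whether neighbours went the same way more often than that share gives was not tested. The pairs that were both higher included Mt1a with Mt2A, S100a8 with S100a9 and the chemokine genes Ccl9 with Ccl6. Those that were both lower included Tbx2 with Tbx4, Myh6 with Myh7 and the run of Col1a1, Sgca, Ppp1r9b and Pdk2 on chromosome 10. Mixed pairs stood close together in some cases: 182 bp separate Scn3b (4.13-fold lower) from Gramd1b (3.24-fold higher), and 984 bp separate Ppp2r2d (3.01-fold lower) from Bnip3 (3.62-fold higher) as listed in the authors' deposited table. C1qtnf5 (24.8-fold higher, p 0.018) lay 1475 bp from Rnf26 (3.26-fold lower) per the authors' deposited table.

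Promoters were found in the RefSeq table for 195 higher and 315 lower named genes without opposite rows. Their median GC content was 59.3% for higher and 61% for lower genes, against 51.7% for all 33469 promoters. For the 21851 protein-coding promoters among these it was 55%. The hypoxia response core was present in 60% of higher, 55.2% of lower and 41.6% of all promoters. The TATA box (TATAAA) was present in 14.9% of higher, 5.71% of lower and 14.2% of all promoters, and the AP-1 site (TGACTCA or TGAGTCA) in 6.15%, 2.22% and 4.63% in that order. The glucocorticoid element's core (AGAACA) was in 15.9% of higher, 8.57% of lower and 20.7% of all promoters, and the cyclic AMP element's core (TGACG) in 32.3%, 24.1% and 21.2% in that order. The CCAAT box (CCAAT) was in 35.4% of higher, 32.4% of lower and 37.5% of all promoters. Among protein-coding promoters the share was 45.8% for the hypoxia core, 13% for the TATA box and 4.12% for the AP-1 site. It was 18.2% for the glucocorticoid core, 23.5% for the cyclic AMP core and 38% for the CCAAT box. Both strands were searched, the hypoxia core can lie inside an E-box, and these shares move with base content. They are descriptions of letters in a window and show no binding.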

How the data were processed

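Total RNA of 5 rat lung samples, 1 library a group, was extracted with TriReagent and sequenced from Illumina TruSeq libraries, per the labels' protocols. The authors deposited, per the file headers, a signed proportional fold (a ratio, negative where the second library is higher), an FDR-corrected p-value and a locus for each gene; counts and depth are not given, so the depth is unknown. The sources used here do not give the aligner, test, strand setting or genome build (not stated in the labels or headers). Of 11 files, 9 tables were used and 2 duplicates left out.

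Overlapping rows of 1 symbol were merged, keeping the row of largest size (906 rows, 873 genes), with pandas 2.3.3 and numpy 2.4.6 in Python 3.11.15, and the counting was tested on 800 simulated loci. With 1 library a side no test was run. Names, chromosomes and promoters came from RefSeq (GRCr8), where 595 named genes lay on the chromosome of the tables, 7 on another and 5 were not found. Members and the 49 lists were chosen with earlier results of these data known. Named in the text are the 15 largest folds and 15 smallest p each way, loci with opposite rows, up to 8 members a list and genes listed at 0. Others, such as Tbx2, Tbx4, Erg, Ddx21, Grn, the neighbour pairs, the V segments and identifiers named through RefSeq, were chosen after their values were seen. A few list members are counted but not reported here by name. Alternatives changed the row kept, the p and fold limits and the identifiers counted.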

Additional observations from a re-analysis of the deposited data

Results flagged for a closer look

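Edn1 was the 1 named gene that was lower in the normal male over the normoxic male and higher in all 3 other exposed libraries over the same normoxic library. It was 2.50-fold lower in the normal male, against 3.88-fold higher in the susceptible male, 2.62-fold higher in the tolerant male and 3.68-fold higher in the tolerant female as given in the authors' deposited tables. The difference was not tested, since each group had 1 library and the 4 tables share the normoxic one.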

How the results depend on the processing

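At a fold of at least 4, 177 genes were higher and 138 lower, the ratio of median locus length of higher over lower genes was 0.0340 (0.208 in the report), 3 loci had opposite rows and 14 of the 49 lists had more higher than lower members (23 in the report). With named genes only, 235 were higher and the length ratio was 0.580; with loci of at least 1 kb only, chosen after seeing the data, it was 0.539. With the same start and end required, 1 locus had opposite rows. The share of higher genes ran from 38.7% to 56.2% over the alternatives. The number of higher minus lower members turned round for kinases and phosphatases (-2 in the report, 1 at a p of at most 0.01 and 3 at a fold of at least 4) and, at a fold of at least 4, for heat shock genes (1 to -1), cytoskeletal genes (1 to -3) and alveolar type 2 genes (1 to -1), where fewer genes are counted. No other list or motif turned round, but lists shrank and some were tied or empty: at a fold of at least 4, higher minus lower members came to 2 for HIF targets (8 in the report), -4 for growth factor signalling (-18) and -15 for cardiac genes (-21), and the splicing list was empty. No paired analysis was possible because each group had 1 library, and no library could be left out. Without counts, depth and counting error are unknown, and genes under the fold and p limits were not analysed here.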
